A study of Mus musculus with 6 samples.

Results

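The translation initiation factor genes were taken from the deposited transcript table by symbol. A gene was a member when its symbol began with Eif, a digit from 1 to 6 and only lower-case letters or digits after it, with Eif4ebp1 and Eif2ak2 left out. This gave 56 of 54242 gene symbols, with 354 of 140992 transcripts, and TPM (the share of transcripts, scaled to sum to 1000000 in each library) were summed per gene. The rule used no measured value. It also took in genes that regulate the factors rather than act as factors (Eif2ak1, Eif2ak3, Eif2ak4, Eif4ebp2, Eif4ebp3 and Eif4enif1), and Eif2c5, which carries an older symbol of the Argonaute family.

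RNA came from L4-6 dorsal root ganglia (DRG), which hold the cell bodies of sensory neurons, of male C57bl/6 mice aged 8-10 weeks. The fasted group was 3 libraries from mice on 10 days of intermittent fasting, and the fed group was 3 libraries from mice fed ad libitum; no mutant allele or drug is named for either group. All mice were killed after 24 hours, with no label saying what the 24 hours follow, and the ganglia of both groups were enzymatically dissociated and spun on 15% BSA, which enriches for neurons. No label says whether a library is 1 animal or a pool, so each p-value reflects only how far these libraries spread, part of which may be technical.

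Initiation factors bring the small ribosomal subunit, the initiator tRNA and the mRNA together at a start codon. The eIF2 complex carries the initiator tRNA and is recharged by its exchange factor eIF2B, eIF3 is the large scaffold on the small subunit, and the eIF4 factors bind the cap, unwind the leader and recruit the subunit. Nutrient and stress signals act on this machinery mainly through its proteins: kinases of the Eif2ak family phosphorylate eIF2, and the 4E-binding proteins hold back the cap-binding protein. An mRNA level measures neither of these modifications.

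Some transcripts of the translation machinery begin with a run of pyrimidines at the cap, the 5′ terminal oligopyrimidine (TOP) motif, through which nutrient-sensitive mTORC1 signalling controls their translation. The windows of 4 members with a run of pyrimidines near the annotated start, 2 eIF3 subunits and the pair of eIF2 gamma genes, are shown from RefSeq (GRCm38.p6). The windows hold 25 bases before the annotated start and 25 from it on, with the run of C and T letters in capitals. They are chr7:108934390-108934439 (plus strand), chr15:79075198-79075247 (plus), chrX:94212627-94212676 (minus) and chrY:1010570-1010619 (plus).
Eif3f: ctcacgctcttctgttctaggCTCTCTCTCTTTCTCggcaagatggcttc
Eif3l: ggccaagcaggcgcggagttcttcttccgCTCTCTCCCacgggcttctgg
Eif2s3x: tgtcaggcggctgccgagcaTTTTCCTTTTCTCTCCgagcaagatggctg
Eif2s3y: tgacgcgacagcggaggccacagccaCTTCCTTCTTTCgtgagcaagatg
A run of at least 8 letters that were all C or T, read on the gene's strand from 5 bases before to 15 after the annotated start, was found in 9 of the 44 members with a RefSeq window (20.5%) and in 7.6% of all 27025 genes in that table. The other 5 were Eif2ak4, Eif2b2, Eif2b5, Eif4enif1 and Eif2c5. The 8 tested members with a run had a median log2 fold change of 0.067, and the 34 tested members without it 0.056. A match describes the letters only, and these starts come from the annotation and not from the libraries. In the 4 windows shown no run began at the annotated start itself. The run began 4 bases (Eif3f) and 5 bases (Eif2s3x) before it, or 1 base (Eif2s3y) and 4 bases (Eif3l) after it.

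Of the 56 genes, 52 averaged 1 TPM or more across the libraries and entered the test, within a fit of 15097 genes. The remaining 4 were the oocyte cap-binding gene Eif4e1b, between 0.024 and 0.19 TPM in every library, and Eif4a3l1, Eif4a3l2 and Eif2c5, each above 0 in 1 library only. Together the members made up 0.758%, 0.768% and 0.769% of all TPM in fasted replicates 1, 2 and 3, and 0.753%, 0.717% and 0.739% in fed replicates 1, 2 and 3. Of the tested genes 22 averaged at least 100 TPM, 27 lay between 20 and 100 TPM, and 3 lay lower. The within-group coefficient of variation had a median of 3.48% and was under 10% for 48 of the 52.

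**Figure D1:**
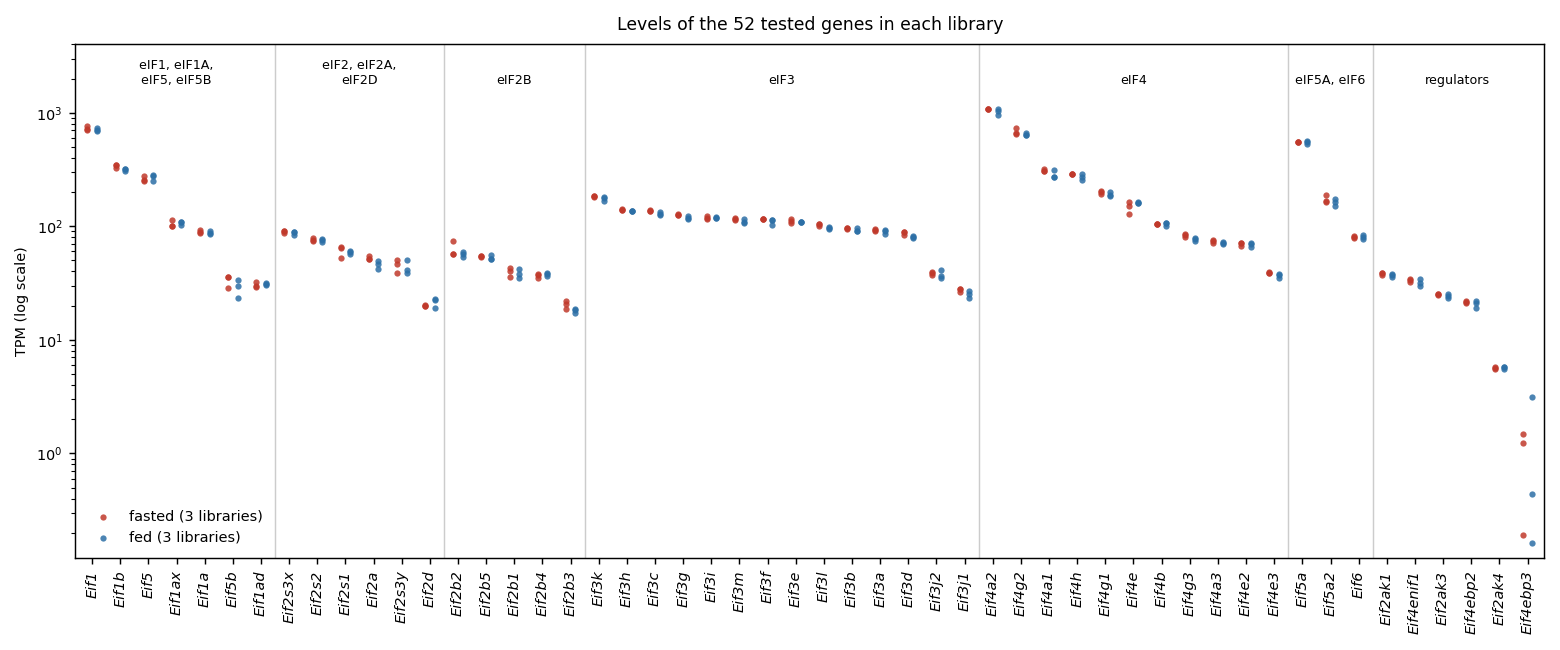
TPM on a log scale of the 52 tested genes, grouped by role, with 1 point per library (fasted left and red, fed right and blue for each gene). Levels run from a mean of 1051 TPM for Eif4a2 to 1.11 TPM for Eif4ebp3, and the points of both diets lie close together for nearly every gene.

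Library differences that touch these results are as follows. Fed replicate 2 held the most skeletal muscle RNA: 5 muscle markers summed to 46.4, 172 and 199 TPM in the fasted libraries and to 176, 2433 and 244 TPM in fed replicates 1, 2 and 3. It also drew the most from mitochondrial genes (8.995% of TPM against 4.83% to 6.91% in the other 5 libraries) and the least from 10 sensory neuron markers, which summed to 18008, 17232 and 18098 TPM in fasted and to 17482, 15790 and 16983 TPM in fed replicates 1, 2 and 3. The 10 neuron markers included Snap25, Prph, Nefh and Scn10a, all of them were detected, and 9 of them were higher in fasted libraries, 0 passing. Satellite glia (6 markers) summed to 5677 to 5904 TPM in fasted and 5668 to 6426 TPM in fed libraries, and Schwann cells (6 markers) to 7425 to 8235 and 7128 to 7976 TPM. The 5 erythroid markers, all higher in fasted libraries with 0 passing, summed to 1715 to 3277 TPM in fasted and 1284 to 1564 TPM in fed libraries. The 7 macrophage markers, all lower in fasted libraries with 0 passing, summed to 42.5 to 54.3 TPM in fasted and to 66.7 to 81.4 TPM in fed libraries, and the 5 endothelial markers, likewise all lower with 0 passing, to 59.7 to 68.9 and 70.0 to 81.9 TPM. No marker was listed at 0 throughout. The part of these shifts in the results on initiation factors was not tested, and in bulk RNA fewer cells of a type and less RNA per cell cannot be told apart.

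Fasting was compared with feeding gene by gene with limma on log2(TPM + 1). None of the 52 initiation factor genes passed an adjusted p of 0.05 (0 of 52, against 1 of 15097 genes, 0.00662%); the smallest adjusted p was 0.48, for Eif2a, and 7 had an unadjusted p under 0.05, all of them higher in fasted libraries, where 6.72% of all genes were higher and 3.22% lower at that level. Log2 fold changes ran from -0.14 (Eif4e) to 0.21 (Eif5b), with a median of 0.055, against 0.031 for all tested genes. In direction 43 were higher and 9 lower in fasted libraries, 82.7% higher, against 62.5% of all tested genes. Fasted and fed values were without overlap for 13 members higher in fasted libraries and 0 lower, 25% of the 52, where 12.7% of all tested genes were higher and 5.07% lower without overlap. In this fit on TPM the 95% interval of the fold change lay within 1.2-fold in both directions for 43 of the 52. It lay within 1.5-fold for all except Eif4ebp3. Like the p-values, these intervals reflect only how far these libraries spread, and they do not cover the choice of scaling.

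**Figure D2:**
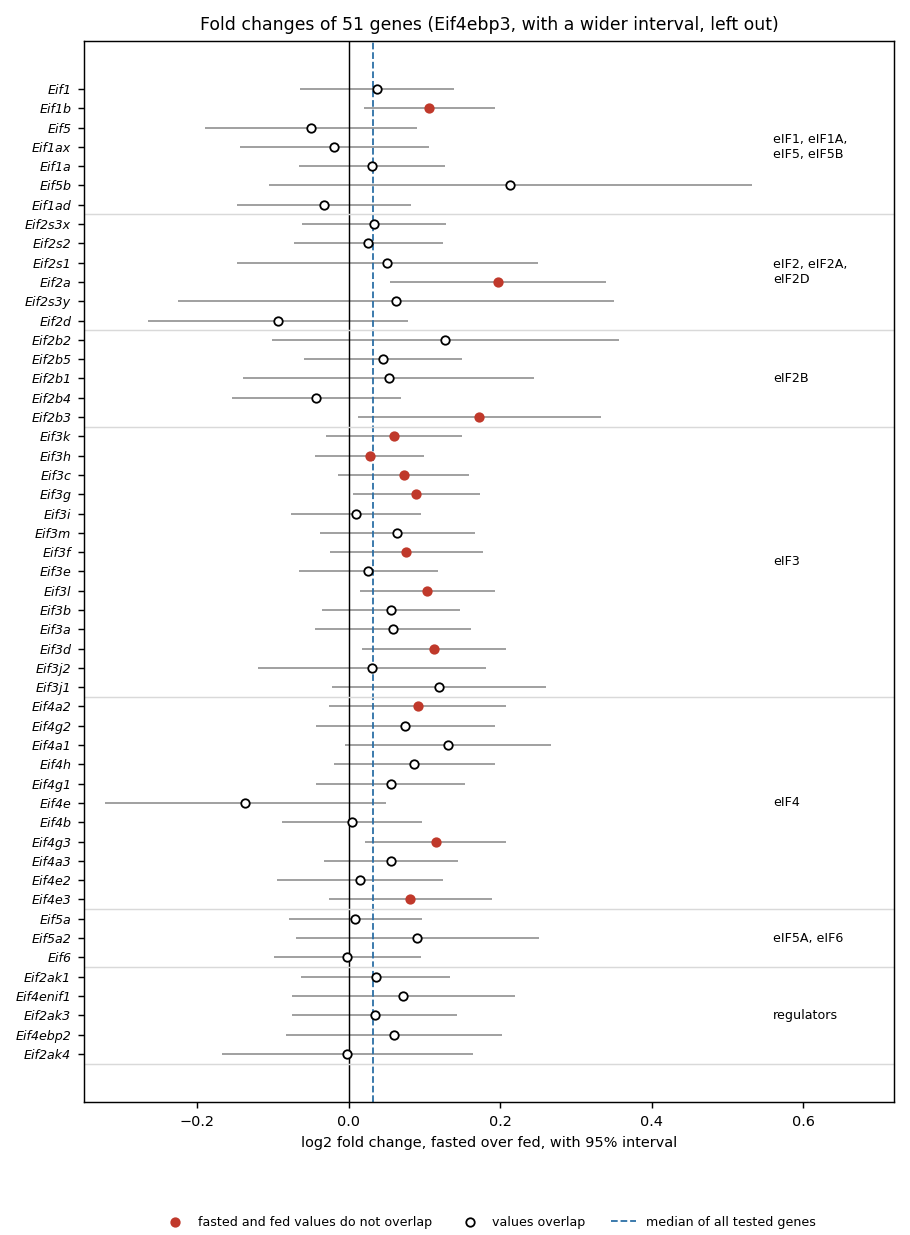
Log2 fold change, fasted over fed, of 51 tested genes with 95% intervals from limma, grouped by role; filled red points are the 13 genes whose fasted and fed values do not overlap, and the dashed line is the median of all tested genes (0.031). Most points lie right of 0 and close to the dashed line, and the widest intervals belong to Eif5b, Eif2s3y and Eif2b2.

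The excess of higher values depended on how the libraries were scaled. Under median-of-ratios scaling the median of all genes was 0.0019 and that of the members 0.024. In direction 34 members were higher and 18 lower, where 50.9% of all tested genes were higher. The values did not overlap for 6 members higher in fasted libraries (11.5%, against 7.66% of all genes) and for 1 lower, Eif4e (against 7.84%). TMM-type scaling gave 36 higher and 16 lower in direction, where 51.5% of all tested genes were higher. It gave the same counts without overlap as median-of-ratios scaling (against 7.84% higher and 7.62% lower). Rescaling without mitochondrial genes left 7 higher without overlap (13.5%, against 7.51%) and 1 lower (against 7.99%). Quantile normalization left 5 higher (9.62%, against 8.71%) and 1 lower (against 6.88%). Eif1b, Eif2a, Eif3l and Eif4g3 stayed higher without overlap under TPM and each of the 4 other scalings. Without fed replicate 2 the count on TPM was 15 of 51 (29.4%, against 16.8% of all genes) for higher and 3 for lower (against 8.4%). Without fed replicate 1 it was 23 higher (44.2%, against 21.8%) and 0 lower (against 9.43%), and without fed replicate 3 it was 18 higher (34.6%, against 22.6%) and 0 lower (against 10.3%). Without fasted replicates 1, 2 and 3 in turn, 17, 16 and 15 were higher (against 19.3%, 20% and 17.1%) and 1, 0 and 2 lower (against 8.19%, 8.78% and 8.86%). Fed replicate 2 held the lowest value of 30 of the 52 members (57.7%), and of 33.1% of all tested genes.

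**Figure D3:**
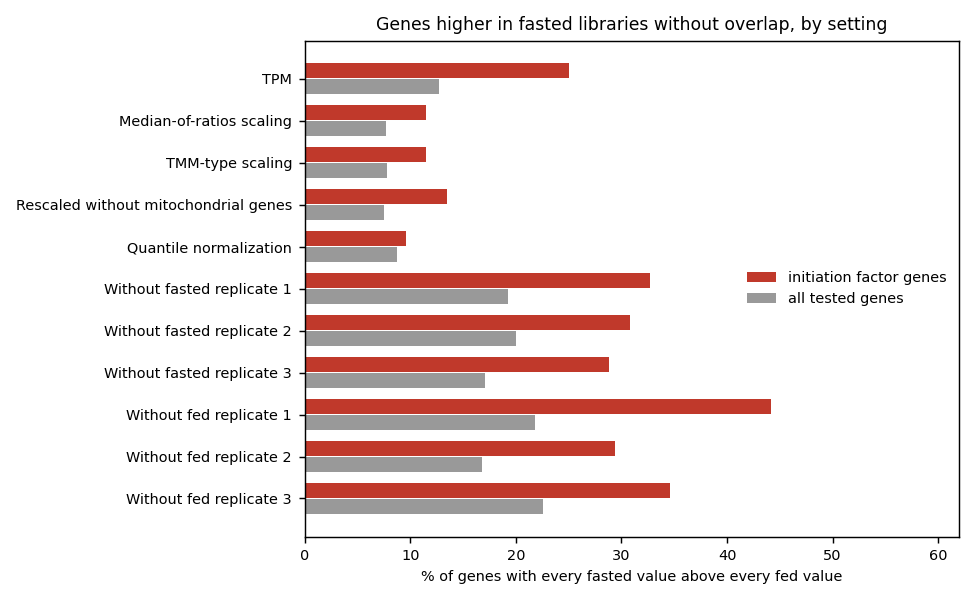
Percent of genes with every fasted value above every fed value, for the initiation factor genes (red) and for all tested genes (grey), on TPM, under 4 other scalings and with each library left out. The red bar is 25% on TPM and 9.62% to 13.5% under the other scalings, where the grey bar is 7.51% to 8.71%.

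Of the 7 genes grouped under start codon selection and subunit joining, 4 were higher (against 62.5% of all tested genes) and 3 lower (Eif5, Eif1ax and Eif1ad) on TPM. None passed, and Eif1b alone was higher without overlap (against 12.7% of all tested genes). Eif1, which keeps the scanning ribosome from starting at wrong codons, was at 701, 760 and 724 TPM in fasted and 730, 693 and 705 TPM in fed replicates 1, 2 and 3. These values overlapped (log2 fold change 0.037, standard error 0.044). The coding Eif1-201 averaged 498 TPM in fasted and 504 TPM in fed libraries. Eif1-202, which has no annotated product, was at 172, 251 and 208 TPM in fasted and 216, 164 and 178 TPM in fed libraries. The paralog Eif1b (chromosome 9, 120492232 to 120495330, GRCm38) was at 345, 329 and 346 TPM in fasted and 319, 309 and 319 TPM in fed libraries. Each fasted value of Eif1b was above each fed value, but the gene did not pass (log2 fold change 0.11 with a standard error of 0.037, and adjusted p = 0.48 in limma). Eif1a and Eif1ax, which code for eIF1A proteins that stabilise the scanning complex, lay at 89.6 ± 2.38 and 105 ± 6.52 TPM in fasted and 87.7 ± 3.01 and 106 ± 3.91 TPM in fed libraries (SD, n = 3 each). The coding Eif1ax-201, 90.8% of its gene, was at 97.2, 97.0 and 100 TPM in fasted and 95.6, 90.1 and 95.7 TPM in fed libraries. It was higher without overlap, as were 9.38% of all tested transcripts. The retained-intron Eif1ax-202 was at 4.37, 3.97 and 12.3 TPM in fasted and 13.2, 11.7 and 12.7 TPM in fed libraries. Eif5, whose protein activates the GTPase step of eIF2, was at 249 to 279 TPM in fasted and 252 to 282 TPM in fed libraries. Eif1ad, a gene with an eIF1A-like domain, was at 29.5 to 32.03 TPM in fasted and 30.6 to 31.8 TPM in fed libraries. Its coding transcript Eif1ad-201 averaged 26.5 TPM in fasted and 25.9 TPM in fed libraries, with overlap. Eif1ad-202, which has no annotated product, averaged 3.28 and 4.61 TPM. Eif5b, which joins the large subunit, had the highest fold change of the 52, with a standard error above that of every tested member except Eif4ebp3 (log2 fold change 0.21, standard error 0.14), at 35.6, 28.8 and 35.6 TPM in fasted and 23.3, 33.5 and 29.6 TPM in fed libraries.

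The eIF2 complex is made from an alpha subunit (Eif2s1), a beta subunit (Eif2s2) and a gamma subunit, which mice encode on both sex chromosomes (Eif2s3x and Eif2s3y). Eif2s1, the target of the stress kinases, was at 65.0, 66.0 and 52.6 TPM in fasted and 60.03, 57.0 and 59.2 TPM in fed libraries. Eif2s2 was at 78.9, 74.9 and 75.4 TPM in fasted and 77.6, 74.9 and 72.6 TPM in fed libraries. Eif2s3x was at 86.5, 90.4 and 90.6 TPM in fasted and 88.8, 83.9 and 88.7 TPM in fed libraries, and its Y-linked copy at 38.6, 47.0 and 50.6 against 41.2, 38.7 and 50.4 TPM. For none of the 4 did the groups separate. Eif2a codes for eIF2A, a separate factor that can deliver initiator tRNA and is not the alpha subunit of eIF2. Eif2a (chromosome 3, 58525821 to 58557501, GRCm38) was at 55.2, 51.5 and 51.96 TPM in fasted and 49.2, 42.4 and 46.6 TPM in fed libraries. It had the smallest p of all members, with each fasted value above each fed value and a log2 fold change of 0.20 (standard error 0.061, 95% interval 0.054 to 0.34), and did not pass (limma, adjusted p = 0.48). Eif2d, another tRNA-delivering factor, was at 19.9, 19.9 and 20.2 TPM in fasted and 23.1, 19.1 and 22.3 TPM in fed libraries.

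The exchange factor eIF2B has 5 subunits. Eif2b2 and the gene of the catalytic subunit, Eif2b5, averaged 59.7 and 53.7 TPM over the 6 libraries, Eif2b1 and Eif2b4 averaged 39.0 and 37.3 TPM, and Eif2b3 averaged 19.3 TPM. Within each of the first 2 pairs the 6-library ranges overlapped, and between the pairs and before Eif2b3 they did not. Eif2b3 (chromosome 4, 117019402 to 117087306, GRCm38) was at 20.7, 18.8 and 22.2 TPM in fasted and 18.3, 17.3 and 18.7 TPM in fed libraries. The groups of Eif2b3 did not overlap by a narrow margin, and it did not pass (log2 fold change 0.17 with a standard error of 0.068, and adjusted p = 0.50 in limma). Eif2b2 was at 73.4, 57.5 and 56.8 TPM in fasted and 56.9, 59.6 and 54.1 TPM in fed libraries. The high value is fasted replicate 1, in which the retained-intron transcript Eif2b2-206 was at 27.9 TPM, against 11.6 to 17.6 TPM in the other 5 libraries; without that transcript the gene was at 44.9 ± 1.54 TPM in fasted and 42.8 ± 1.74 TPM in fed libraries (SD, n = 3 each).

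All 14 genes of eIF3 had a positive log2 fold change on TPM, from 0.0090 (Eif3i) to 0.12 (Eif3j1) with a median of 0.062, and 0 passed; the share of positive values over the whole fit was 62.5%. Under median-of-ratios scaling and without mitochondrial genes 10 of the 14 were positive (against 50.9% and 50.4% of all tested genes). Under TMM-type scaling and quantile normalization 11 were positive (against 51.5% and 54.7%). On TPM each fasted value was above each fed value for 7 of the 14, against 12.7% of all tested genes. That count was 2 under median-of-ratios and TMM-type scaling (Eif3f and Eif3l, against 7.66% and 7.84% of all tested genes). It was 2 under quantile normalization (Eif3d and Eif3l, against 8.71%) and 4 without mitochondrial genes (Eif3d, Eif3g, Eif3k and Eif3l, against 7.51%). On TPM 11 of the 14 had their lowest value in fed replicate 2, as did 57.7% of the members and 33.1% of all tested genes. That library held the most muscle and mitochondrial RNA, and whether this bears on the eIF3 values was not tested. Summed over the 14 genes, eIF3 stood at 1495, 1495 and 1494 TPM in fasted and at 1464, 1395 and 1438 TPM in fed replicates 1, 2 and 3.

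**Figure D4:**
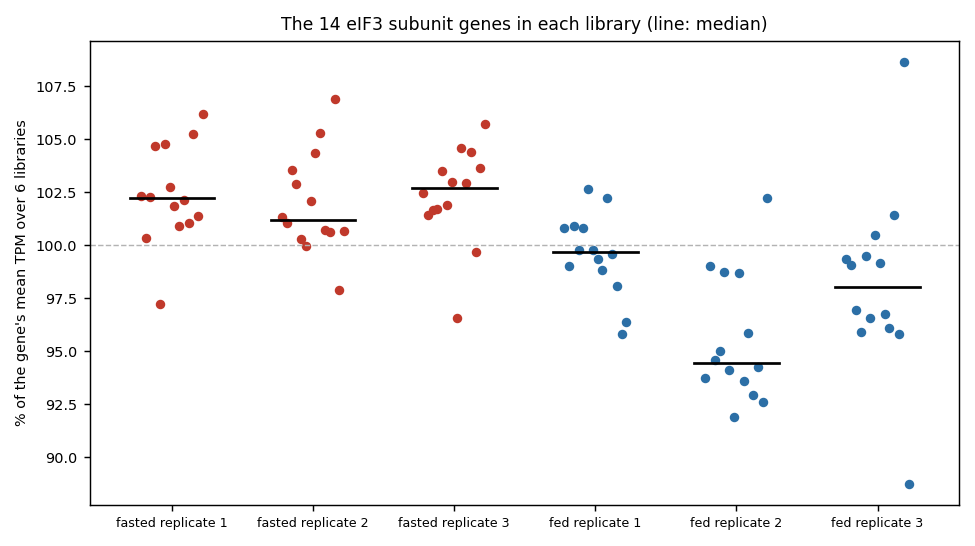
Each of the 14 eIF3 genes as a percent of its own mean TPM over the 6 libraries, by library, with the median as a line. The medians are 102%, 101% and 103% in the fasted libraries and 99.7%, 94.4% and 98.0% in fed replicates 1, 2 and 3, lowest in fed replicate 2.

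Eif3d, whose human protein can itself bind the cap of some mRNAs, was at 88.3, 89.6 and 83.6 TPM in fasted and 82.2, 79.0 and 80.3 TPM in fed libraries (log2 fold change 0.11 with a standard error of 0.041, and adjusted p = 0.48 in limma). Eif3l was at 101, 106 and 105 TPM in fasted and 99.0, 93.8 and 97.0 TPM in fed libraries (log2 fold change 0.10, standard error 0.038). Eif3g, an RNA-binding subunit, was at 129, 127 and 125 TPM in fasted and 123, 117 and 118 TPM in fed libraries (log2 fold change 0.089, standard error 0.036). In all 3 genes the lowest fasted value stood just above the highest fed value. Eif3c, a core scaffold subunit, was at 137, 138 and 136 TPM in fasted and 135, 126 and 129 TPM in fed libraries. The remaining 3 without overlap were Eif3f, Eif3k and Eif3h; the log2 fold change was 0.076 for Eif3f and 0.059 for Eif3k. Under median-of-ratios scaling the fold change of Eif3h was -0.0040. Eif3h was the steadiest member, at 139, 140 and 141 TPM in fasted and 138 TPM in each of the 3 fed libraries, so that its groups separated at a difference smaller than its standard error (log2 fold change 0.027, standard error 0.031).

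Across the complex the levels were not equal. Eif3k averaged 179 TPM over the 6 libraries, the 11 genes from Eif3h to Eif3d lay between 139 and 83.8 TPM, and Eif3j2 and Eif3j1, which code for the loosely bound eIF3j, averaged 37.9 and 26.4 TPM. Among those 11, neighbours in this order overlapped in their 6-library ranges, except Eif3e and Eif3l. Eif3a and Eif3b, the other core subunits, were at 91.6 to 95.1 and 94.7 to 96.7 TPM in fasted and at 84.6 to 92.4 and 90.1 to 96.1 TPM in fed libraries. Eif3e, Eif3i and Eif3m lay between 106 and 123 TPM in fasted and between 107 and 120 TPM in fed libraries.

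Of the 11 eIF4 genes tested, 10 had a positive fold change on TPM (against 62.5% of all tested genes), and 0 passed. Under each of the 4 other scalings 8 were positive (against 50.4% to 54.7% of all tested genes). Eif4a2, a helicase of the cap-binding complex, was the most abundant member, at 1087, 1073 and 1089 TPM in fasted and 1035, 951 and 1068 TPM in fed libraries. Its groups did not overlap, with the widest gap to fed replicate 2 (log2 fold change 0.091, standard error 0.050). Eif4a1, its paralog, was at 319, 306 and 310 TPM in fasted and 311, 272 and 271 TPM in fed libraries, which overlap through fed replicate 1. Eif4a3, the related helicase of the exon junction complex, was at 71.5 to 75.1 TPM in fasted and 69.6 to 72.2 TPM in fed libraries.

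Among the scaffold genes, Eif4g2, a relative that lacks the cap-binding protein's site, was at 653, 729 and 661 TPM in fasted and 639, 636 and 662 TPM in fed libraries. Its transcript Eif4g2-207 was at 69.6 TPM in fasted replicate 2, the high library, 26.8 TPM in fed replicate 3 and listed at 0 in the other 4 libraries. Eif4g1 was at 193, 203 and 201 TPM in fasted and 200, 188 and 186 TPM in fed libraries. Eif4g3 (chromosome 4, 137993022 to 138208508, GRCm38) was at 83.7, 81.2 and 86.0 TPM in fasted and 77.9, 74.9 and 78.8 TPM in fed libraries. Eif4g3 separated without overlap under TPM and each of the 4 other scalings, and did not pass (log2 fold change 0.11 with a standard error of 0.040, and adjusted p = 0.48 in limma). The helicase cofactors Eif4b and Eif4h were at 104 to 105 and 287 to 290 TPM in fasted and at 99.8 to 107 and 257 to 288 TPM in fed libraries.

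The cap-binding genes held the lowest fold change. Eif4e was at 129, 152 and 162 TPM in fasted and 162, 162 and 161 TPM in fed libraries (log2 fold change -0.14 with a standard error of 0.079, and adjusted p = 0.55 in limma). These TPM values overlapped. Under each of the 4 other scalings Eif4e was the 1 member lower without overlap (against 6.88% to 7.99% of all tested genes). The low value is that of fasted replicate 1, where the coding transcript Eif4e-206 was listed at 0, while it was at 31.9 and 38.9 TPM in the other fasted libraries and at 36.8 to 40.9 TPM in the fed ones. Without that transcript Eif4e was at 124 ± 4.33 TPM in fasted and 122 ± 2.13 TPM in fed libraries (SD, n = 3 each). Eif4e2, whose protein binds the cap and represses translation, was at 71.5, 66.9 and 70.8 TPM in fasted and 71.5, 69.7 and 65.8 TPM in fed libraries. Eif4e3 was at 38.8, 38.7 and 39.6 TPM in fasted and 37.3, 35.1 and 38.2 TPM in fed libraries, without overlap (log2 fold change 0.081, standard error 0.046).

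Eif5a, which codes for the hypusine-bearing factor that now counts mainly as an elongation factor, was at 551, 551 and 549 TPM in fasted and 566, 547 and 528 TPM in fed libraries. Its paralog Eif5a2 was at 166, 165 and 189 TPM in fasted and 164, 151 and 173 TPM in fed libraries. Eif6, which keeps the large subunit from joining too early, was at 79.0 to 82.8 TPM in fasted and 77.9 to 84.0 TPM in fed libraries. None of the 3 separated the diets.

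Of the 6 regulators that share the Eif prefix, 4 were higher and 2 lower on TPM (against 62.5% of all tested genes higher), 0 passed, and for none did the groups separate. Of the eIF2 kinases, Eif2ak1 (activated by lack of haem) was at 38.5, 37.4 and 38.6 TPM in fasted and 37.5, 36.003 and 38.2 TPM in fed libraries. Eif2ak3 (PERK, activated by stress of the endoplasmic reticulum) was at 24.6 to 25.2 TPM in fasted and 23.5 to 25.2 TPM in fed libraries, and Eif2ak4 (GCN2, activated by lack of amino acids) at 5.56 to 5.74 TPM in fasted and 5.48 to 5.79 TPM in fed libraries. The log2 fold change of Eif2ak4 was -0.0025 with a 95% interval from -0.17 to 0.16. Eif4enif1, which carries the cap-binding protein into the nucleus, was at 32.3, 34.6 and 33.8 TPM in fasted and 34.6, 31.4 and 29.8 TPM in fed libraries. Eif4ebp2, a 4E-binding protein gene, was at 21.3 to 22.03 TPM in fasted and 19.2 to 22.1 TPM in fed libraries. Eif4ebp3 was at 1.23, 0.19 and 1.48 TPM in fasted and 0.16, 3.16 and 0.44 TPM in fed libraries; it reached the limit for testing through fed replicate 2, and its interval (-1.20 to 1.14 on the log2 scale) leaves its direction unknown.

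Several factors have a pair of genes, and the share of each pair's TPM does not depend on how a library is scaled. The 8 pairs were compared by exact two-sided permutation tests over the 6 libraries, whose smallest possible p is 0.1, so that no pair could pass 0.05. Eif1b gave 31.8 ± 1.48% of Eif1 and Eif1b in fasted and 30.8 ± 0.38% in fed libraries (SD, n = 3 each; exact permutation p = 0.4, adjusted 0.8). Eif4a2 gave 77.7 ± 0.29% of Eif4a1 and Eif4a2 in fasted and 78.1 ± 1.49% in fed libraries (exact permutation p = 0.9, adjusted 1). Eif4g3 gave 29.6 ± 0.90% of Eif4g1 and Eif4g3 in fasted and 28.8 ± 0.93% in fed libraries, with the smallest p of the 8 (exact permutation p = 0.2, adjusted 0.8). Eif2s3y gave 33.6 ± 2.54% of the gamma subunit's TPM in fasted and 33.2 ± 2.66% in fed libraries. Eif5a2 gave 23.9 ± 1.44% of its pair in fasted and 22.9 ± 1.56% in fed libraries, Eif1ax 53.9 ± 2.10% and 54.8 ± 0.70%, and Eif4e2 32.2 ± 3.05% and 29.9 ± 0.81%, the last with Eif4e-206 at 0 in fasted replicate 1. Every difference was within the spread of at least 1 of the groups.

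How far such shares can be measured depends on how unlike the sequences are. The last 60 coding bases before the stop codon are shown for 3 of the pairs, from the GENCODE M21 transcripts, with the letters that differ within a pair in capitals.
Eif1b: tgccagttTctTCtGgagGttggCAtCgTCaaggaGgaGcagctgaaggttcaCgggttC
Eif1: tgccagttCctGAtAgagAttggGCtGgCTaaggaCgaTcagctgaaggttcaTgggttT
Eif4a2: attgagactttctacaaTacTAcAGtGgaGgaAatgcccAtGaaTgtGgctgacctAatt
Eif4a1: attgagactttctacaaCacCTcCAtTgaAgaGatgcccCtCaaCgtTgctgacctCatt
Eif2s3y: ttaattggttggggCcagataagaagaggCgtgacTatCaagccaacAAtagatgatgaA
Eif2s3x: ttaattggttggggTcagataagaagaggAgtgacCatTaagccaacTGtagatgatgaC
In these stretches the pairs differ at 14, 13 and 7 of the 60 bases. Over the whole coding sequence the identity was 81.1% for Eif1b and Eif1, 77.6% for Eif4a2 and Eif4a1 and 86.3% for Eif2s3y and Eif2s3x, and none of these pairs shared more than 0.289% of its 31-base words. Eif3j2 and Eif3j1 differ from the rest: their coding sequences were 99.2% identical and shared 98.95% of their 31-base words. Reads from the coding part can therefore hardly be divided between them. Over the whole main transcripts, 93.95% of the words of Eif3j2-201 were found in Eif3j1. Of the words of the longer Eif3j1-201, 41.0% were found in Eif3j2. The sum of Eif3j1 and Eif3j2 was 65.7 ± 1.85 TPM in fasted and 62.8 ± 1.56 TPM in fed libraries (SD, n = 3 each), and the split (Eif3j2 at 58.2 ± 0.33% and 59.7 ± 3.69%) is uncertain.

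Copies elsewhere in the genome matter for other members too. Of the 52 main transcripts, 12 shared at least 30% of their 31-base words with transcripts of other genes, and 13 shared none. For Eif4a1 the share was 67.6%, nearly all of it with Eif4a-ps4. That copy was listed at 42.3, 63.4 and 47.5 TPM in fasted and at 65.1, 56.8 and 52.2 TPM in fed libraries, and the level of Eif4a1 is uncertain to that extent. Together the gene and its copy stood at 362 ± 6.21 TPM in fasted and 343 ± 29.2 TPM in fed libraries. Eif4e shared 56.1% and Eif3m 53.7%, and the closest other gene of each averaged 0.143 and 0.041 TPM, while Eif2a, Eif3a, Eif3g, Eif3l and Eif4g3 shared none.

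At the level of single transcripts, 157 of the 354 member transcripts averaged 1 TPM or more and 0 passed in a limma fit over 33197 transcripts, where 9 passed in all (0.0271%). Eif2a-205 had the lowest adjusted p (0.61), and the unadjusted p was under 0.05 for 8 transcripts higher in fasted libraries and 3 lower, where 4.49% of all tested transcripts were higher and 2.71% lower at that level. The diets did not overlap for 21 transcripts higher in fasted libraries and 4 lower, 157 being tested, where 9.38% of all tested transcripts were higher and 4.98% lower without overlap. Behind the gene-level value of Eif2a stood 3 transcripts. The main coding one, Eif2a-201, overlapped between the diets at 31.6, 28.05 and 30.01 TPM in fasted and 32.7, 26.9 and 25.9 TPM in fed libraries. The minor coding one, Eif2a-205, was at 4.83, 5.55 and 4.54 TPM in fasted and 3.02, 3.39 and 2.92 TPM in fed libraries. The third, Eif2a-207, annotated as a target of nonsense-mediated decay, was at 18.7, 17.7 and 17.2 TPM in fasted and 13.3, 11.9 and 17.4 TPM in fed libraries. The mean of Eif2a-201 was 29.9 TPM in fasted and 28.5 TPM in fed libraries, and that of Eif2a-207 was 17.9 and 14.2 TPM.

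**Figure D5:**
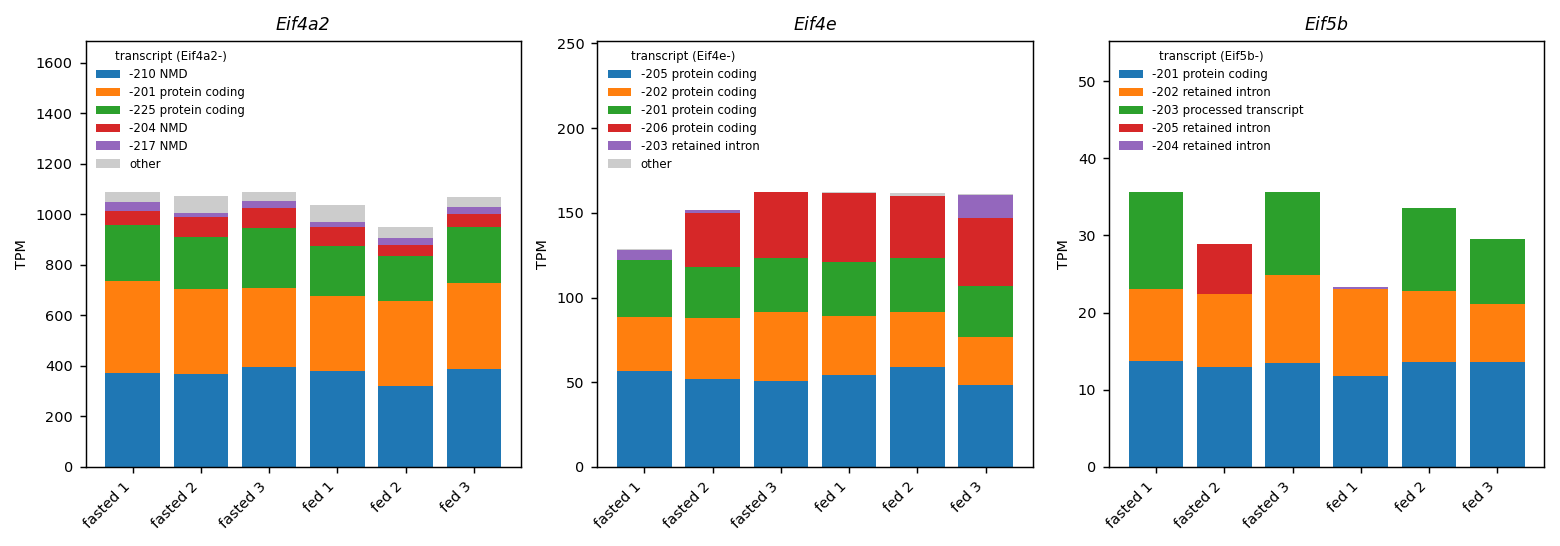
TPM of the transcripts of Eif4a2, Eif4e and Eif5b stacked by library, fasted left and fed right, with each transcript's annotated type (NMD, nonsense-mediated decay). The transcript Eif4e-206 is missing from the bar of fasted replicate 1, and Eif5b-203 from the bars of fasted replicate 2 and fed replicate 1, which are the lowest bars of Eif4e and of each Eif5b group.

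The Eif4a2 transcript with the highest mean over the 6 libraries was Eif4a2-210, and its order against the coding Eif4a2-201 differed between libraries. Eif4a2-210, annotated as a target of nonsense-mediated decay, made up 35.2% of the gene's TPM over the 6 libraries, the coding Eif4a2-201 31.6% and the coding Eif4a2-225 19.9%. Eif4a2-210 was at 370, 369 and 396 TPM in fasted and 379, 319 and 389 TPM in fed libraries, and Eif4a2-201 at 367, 337 and 313 TPM in fasted and 299.9, 339 and 337 TPM in fed libraries. In fed replicate 2 Eif4a2-201 was the higher of the pair, and in fasted replicate 1 they were nearly level. Transcripts of that type together made up 44.1 ± 2.002% of Eif4a2 in fasted and 43.5 ± 2.25% in fed libraries (SD, n = 3 each). The same type made up 19.4 ± 1.08% of Eif4a1 in fasted and 16.0 ± 3.09% in fed libraries, and 33.8 ± 0.63% of Eif2a in fasted and 30.8 ± 5.79% in fed libraries. In Eif5b coding transcripts held 40.4 ± 3.78% in fasted and 45.7 ± 5.03% in fed libraries. Eif5b-203, a transcript with no annotated product, was at 12.5, 0 and 10.7 TPM in fasted and 0, 10.7 and 8.41 TPM in fed libraries. Without Eif5b-203 the gene was at 25.6 ± 2.94 TPM in fasted and 22.4 ± 1.14 TPM in fed libraries (SD, n = 3 each). Its coding transcript Eif5b-201 was at 13.7, 12.9 and 13.5 TPM in fasted and 11.8, 13.6 and 13.6 TPM in fed libraries. Of the 157 tested member transcripts, 9 (5.73%) were listed at exactly 0 in at least 1 library and at 5 TPM or more in another, as were 3.46% of all tested transcripts. An exact 0 here can be a failed estimate where reads were divided between overlapping transcripts.

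Other genes of the pathway were taken from 2 lists put together by hand, not by a symbol rule. Of 25 genes that control initiation from outside the name rule, 18 were higher and 7 lower on TPM (72% higher, against 62.5% of all tested genes), and 0 passed. On TPM 2 of the 25 were higher without overlap (8%, against 12.7%) and 0 lower (against 5.07%). The 2 were Ppp1r15b, a subunit of the phosphatase that restores eIF2, at 25.3, 25.1 and 24.4 TPM in fasted and 21.9, 21.005 and 22.5 TPM in fed libraries (log2 fold change 0.19 with a standard error of 0.048, and adjusted p = 0.42 in limma), and the helicase gene Ddx3x, at 201, 199 and 210 TPM in fasted and 193, 177 and 194 TPM in fed libraries (0.11, standard error 0.046). Ppp1r15b had the smallest p of the 40 pathway genes outside the name rule. Both genes left out of the members by name, Eif4ebp1 and Eif2ak2, overlapped between the diets, at 5.56 to 7.84 and 16.3 to 17.4 TPM in fasted and at 6.37 to 7.41 and 16.3 to 18.8 TPM in fed libraries. Of 15 genes of elongation and termination, 12 were higher and 3 lower on TPM (80% higher, against 62.5%), 0 passed, and 3 were higher without overlap (20%, against 12.7%) and 0 lower (against 5.07%). The 3 were Eef1a2, Etf1 and Pelo. Ppp1r15b, Ddx3x, Eef1a2 and Etf1 were named as the 4 with the smallest p of the 40, and Pelo after its values were seen. Under the 4 other scalings 15 of the 25 and 9 or 10 of the 15 were higher (against 50.4% to 54.7% of all tested genes). Of the 25, Ppp1r15b and Ddx3x then stayed higher without overlap (8%, against 7.51% to 8.71% of all genes). Pabpc1 and Pabpc4, named after their values were seen, were lower without overlap under all 4 (against 6.88% to 7.99%). Of the 15, Eef1a2 and Etf1 stayed higher without overlap (13.3%, against 7.51% to 8.71%) and Pelo did not. Hbs1l was lower without overlap only in the rescaling without mitochondrial genes (against 7.99%). Eef1a2, the elongation factor of neurons and muscle, was at 1289, 1237 and 1253 TPM in fasted and 1213, 1070 and 1201 TPM in fed libraries, and the release factor gene Etf1 at 64.7, 61.8 and 62.8 TPM in fasted and 60.97, 58.2 and 59.99 TPM in fed libraries. The abundant Eef1a1 and Eef2 had log2 fold changes of -0.00086 (standard error 0.043) and -0.016 (standard error 0.043).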

How the data were processed

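The authors deposited one TPM value for each transcript and library, with every library summing to 1000000. TPM keep no depth, so depth is unknown and no count test or counting interval was possible. Per the submitters' processing notes, the tools were Salmon 1.6.0, DESeq2 1.34.0, Trim Galore 0.6.6 and FastQC 0.11.9 and the builds GRCm38 and mm10, with no roles given and the annotation release not given in the sources used here; per the labels' protocols the kit was stranded and selected mRNA. Annotation came from GENCODE M21 (GRCm38), which held 98.7% of the deposited transcripts.

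TPM were summed per symbol, and symbols averaging 1 TPM or more were compared with limma 3.58.1 (R 4.3.3) on log2(TPM + 1); fold changes carry this pseudocount, which shrinks those of low genes. The fit had group as its only term, an intensity trend, two-sided tests and Benjamini-Hochberg adjustment over all genes tested (threshold 0.05), and was tested on simulated data. The members and lists were chosen with earlier results of these data known. Values are given for members without overlap, the 2 most abundant of each list and the paralog pairs. Of the other pathway genes, the 4 with the smallest p were named. Eif5b, Eif4ebp3 and single transcripts were singled out after their values were seen. Replicate numbers are no block, since no label ties them to a shared animal, litter or day. Alternatives were other pseudocounts, filters, scalings and empirical Bayes settings, the block, and each library left out. Figures used Python 3.11.15 and matplotlib 3.10.9.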

Additional observations from a re-analysis of the deposited data

How the results depend on the processing

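No initiation factor gene passed under any alternative run (0 in each), and the smallest adjusted p of a named member was 0.39 (Eif2a, limma, without fed replicate 3). The transcript fit was repeated with a pseudocount of 0.1, a filter at 5 TPM, the block and each library left out. In each of these runs 0 member transcripts passed, and the other alternatives were not run on transcripts. Over all genes 2 passed with a pseudocount of 0.5 or 0.1, 0 without a filter on low values (limma; 2083 at an unadjusted p under 0.05), and 1 to 7 with 1 library left out. The members' median log2 fold change of 0.055 was 0.024 under median-of-ratios scaling, 0.025 under TMM-type scaling, 0.020 under quantile normalization, 0.023 without mitochondrial genes, and 0.032 (without fed replicate 2) to 0.068 (without fed replicate 1) with 1 library left out. The 13 members higher without overlap were 6 under median-of-ratios (against 7.66% of all genes) and 6 under TMM-type scaling (against 7.84%). They were 5 under quantile normalization (against 8.71%) and 7 without mitochondrial genes (against 7.51%). With 1 library left out they were 15 to 23, the 23 (44.2%, against 21.8% of all genes) without fed replicate 1. These alternatives were chosen after seeing the data, and fewer libraries separate more easily. Of 510 recomputed fold changes of 30 named members, 480 kept their direction and 30, in 9 genes, turned, each to a value near 0; the cause was not tested.

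Under median-of-ratios scaling the turned log2 fold changes were -0.0055 (Eif2s2), -0.0040 (Eif3h), -0.023 (Eif5a), -0.00071 (Eif3j2), -0.017 (Eif4e2) and -0.0013 (Eif1a). Under TMM-type scaling they were -0.0039 (Eif2s2), -0.0025 (Eif3h), -0.021 (Eif5a) and -0.015 (Eif4e2). Under quantile normalization they were -0.0030 (Eif1), -0.0079 (Eif2s2), -0.0022 (Eif3h), -0.030 (Eif5a), -0.017 (Eif4e2) and -0.0017 (Eif1a). Without mitochondrial genes they were -0.0066 (Eif2s2), -0.0052 (Eif3h), -0.024 (Eif5a), -0.0018 (Eif3j2), -0.018 (Eif4e2) and -0.0024 (Eif1a). With 1 library left out, fold changes ran from -0.070 to 0.0080 (Eif1ax), -0.019 to 0.17 (Eif2s3y), -0.015 to 0.097 (Eif3j2), -0.019 to 0.044 (Eif4e2) and -0.017 to 0.033 (Eif5a). The differences in share ran from -1.08 to 0.36 percentage points for Eif4a2, from -0.64 to 1.997 for Eif2s3y and from -3.09 to 0.51 for Eif3j2.

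With the replicate number as a block 0 members passed (limma, smallest adjusted p 0.43), against 0 without it, and 1 gene passed in all. Same-numbered libraries correlated at 0.093, 0.114 and 0.066 in their deviations from the group means, and each correlated best with its own number. Whether so weak an order could arise without pairing was not tested, and the design names no pairing. TPM give no depth, and the 3 libraries a group limit which differences can pass.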
